A study of Rattus norvegicus with 36 samples.

Results

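Subunits of the 5 complexes of mitochondrial oxidative phosphorylation were followed through cultured rat granulosa cells, the hormone-responsive cells that line the ovarian follicle. The members were all genes whose platform symbol had a name of the Nduf, Sdh, Uqcr, Cox or Atp5 subunit series, and each gene was read from its probe set of highest mean. This gave 77 of the 14217 named genes, with 34 in complex I, 4 in complex II, 7 in complex III, 16 in complex IV and 16 in complex V. The rule also took in Atp5if1, an inhibitor of ATP synthase, Cox7a2l, a factor of respiratory supercomplexes, and Ndufa4, which is now placed with complex IV. Another 7 probe sets carried a member's name together with a second symbol and were not named. The subunits encoded by mitochondrial DNA were outside the rule.

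The cells came from untreated immature female Sprague Dawley rats aged 21 to 27 days and were plated for 24 h with 5% serum. They were then kept for 48 h in serum-free medium with androstenedione, the precursor that aromatase turns into oestrogen. All groups shared that precursor, at 0.1 µM per the series' design text. HPTE, a hydroxylated metabolite of the pesticide methoxychlor, was added at 0, 1, 5 or 10 µM to cells with no stimulus (basal), to cells with follicle-stimulating hormone (FSH) at 3 ng/ml, or to cells with 1 mM cAMP, the second messenger of the FSH receptor. The 12 groups had 3 arrays each, 36 in all. The labels do not say whether the 3 came from separate animals or from wells of 1 pool of cells, so p-values measure the spread between these samples, which may be technical. These are primary cells of immature follicles in culture, and no measurement of respiration was analysed here.

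Complex I (NADH dehydrogenase) and complex II (succinate dehydrogenase) pass electrons to coenzyme Q, complex III (the cytochrome bc1 complex) passes them to cytochrome c, and complex IV (cytochrome c oxidase) passes them to oxygen. Complexes I, III and IV pump protons, and complex V (ATP synthase) uses the proton gradient to make ATP. In steroid-making cells the mitochondrion also cuts the side chain of cholesterol, with electrons that reach the enzyme through ferredoxin and not through the respiratory chain. Many nuclear genes of the chain are known to carry promoter sites for the nuclear respiratory factors NRF1 and GABP, an ETS-family factor also called NRF2.

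The promoter letters of 4 members that the results turn on are shown because they span the range of the set, from a pair of GABP motifs to none. They are the 250 bases before the start of each gene in RefSeq's GRCr8 annotation. Capitals mark the GABP/ETS motif CCGGAAG, the GC box GGGCGG, the NRF1 consensus motif and the cAMP response element TGACGTCA, read on both strands.
Atp5if1 (chr5:150026678-150026927, minus strand): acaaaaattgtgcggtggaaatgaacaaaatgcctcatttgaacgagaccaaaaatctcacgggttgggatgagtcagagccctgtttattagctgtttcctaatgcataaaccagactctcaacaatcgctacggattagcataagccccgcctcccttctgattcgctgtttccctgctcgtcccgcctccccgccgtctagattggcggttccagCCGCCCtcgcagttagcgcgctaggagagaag
Uqcrc2 (chr1:184598990-184599239, plus strand): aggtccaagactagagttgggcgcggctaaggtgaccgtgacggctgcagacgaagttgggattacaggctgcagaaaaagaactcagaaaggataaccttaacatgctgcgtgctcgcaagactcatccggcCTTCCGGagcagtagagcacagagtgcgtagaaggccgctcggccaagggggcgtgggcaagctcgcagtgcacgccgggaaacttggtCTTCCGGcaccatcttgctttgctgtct
Sdhd (chr8:59850642-59850891, minus strand): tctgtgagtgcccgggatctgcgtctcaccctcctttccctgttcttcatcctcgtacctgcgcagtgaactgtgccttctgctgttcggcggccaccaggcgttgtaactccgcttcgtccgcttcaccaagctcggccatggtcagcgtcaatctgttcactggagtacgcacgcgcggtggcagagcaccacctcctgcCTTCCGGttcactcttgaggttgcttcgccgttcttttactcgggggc
Cox6a2 (chr1:192219717-192219966, minus strand): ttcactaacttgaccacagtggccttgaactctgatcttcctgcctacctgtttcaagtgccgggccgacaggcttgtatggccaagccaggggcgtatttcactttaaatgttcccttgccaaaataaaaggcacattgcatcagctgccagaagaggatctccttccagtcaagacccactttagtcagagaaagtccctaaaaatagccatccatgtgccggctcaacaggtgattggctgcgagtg
Atp5if1 held 1 GC box, Uqcrc2 held 2 GABP/ETS motifs and Sdhd held 1, and Cox6a2, a subunit form of heart and skeletal muscle, held none of these letters. Of the 77 members, 70 had a promoter entry. The GABP/ETS motif stood in 19 of the 70 (27.1%), against 7.27% of 33469 promoters of the same length. The NRF1 motif stood in 10 (14.3%) against 3.75%, and the GC box in 25 (35.7%) against 30.5%. The full cAMP response element stood in 2 (2.86%) against 1.59%, those of Ndufb2 and Cox8a. Its shorter core, TGACG, which lies within the full motif, stood in 27 (38.6%) against 18.2%, and the TATA letters TATAAA in 8 (11.4%) against 12.9%. A match is a run of letters and not a bound site.

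Values are log2 of the deposited intensity. The arrays differed in ways that the groups do not account for. The 12 arrays numbered 3 had Gapdh 3′ to 5′ differences of 0.767 to 1.07 on the log2 scale, against 1.61 to 2.4 in the other 24. The arrays numbered 2 of the unexposed FSH and cAMP groups stood apart from their groups in opposite ways: the summed intensity of macrophage and leukocyte markers was 1623, 449 and 809 in the FSH arrays and 504, 1138 and 453 in the cAMP arrays. In this measure each of the arrays numbered 2 goes against its label and reads like the other group. An exchange of their labels is possible and was not tested, so the labels were kept and results are also given without both arrays. Of the granulosa markers 10 of 11 were measured, and averaged over all arrays all 10 lay above the median probe set (6.11). This did not hold in every group: Cyp19a1 had a mean of 4.71 in unexposed basal cells and 10.14 in unexposed FSH cells. The summed intensity of the granulosa markers was 12470 to 39760 in the group means. The macrophage and leukocyte list (8 of 8 measured, 5 below the median probe set when averaged over all arrays) summed to 439 to 1825 in the group means. In such bulk samples fewer cells of a type and less RNA per cell cannot be told apart.

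In limma's moderated F test between groups, 6 of 77 members passed at an adjusted p under 0.05 (7.79%), against 15% of all 31042 probe sets and 25.1% of those brighter than the median, a set that leaves out 5 of the 77 members. The 6 were Atp5if1 (adjusted p = 9.83e-05), Cox6a2 (0.0011), Cox7a2l (0.0131), Ndufv3 (0.0163), Sdhd (0.0191) and Cox7a1 (0.0323). These shares depend on the fit: with the number in the array's title as a block, 23 members (29.9%) and 29% of all probe sets passed. The highest and the lowest group mean of a member lay 0.37 apart at the median on the log2 scale, against 0.44 for all probe sets and 0.57 for those brighter than the median. The residual SD within groups had a median of 0.29 for the members, 0.23 for all probe sets and 0.29 for those brighter than the median. By complex, the median range of group means was 0.40 in complex I, 0.41 in II, 0.34 in III, 0.45 in IV and 0.31 in V.

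**Figure D1:**
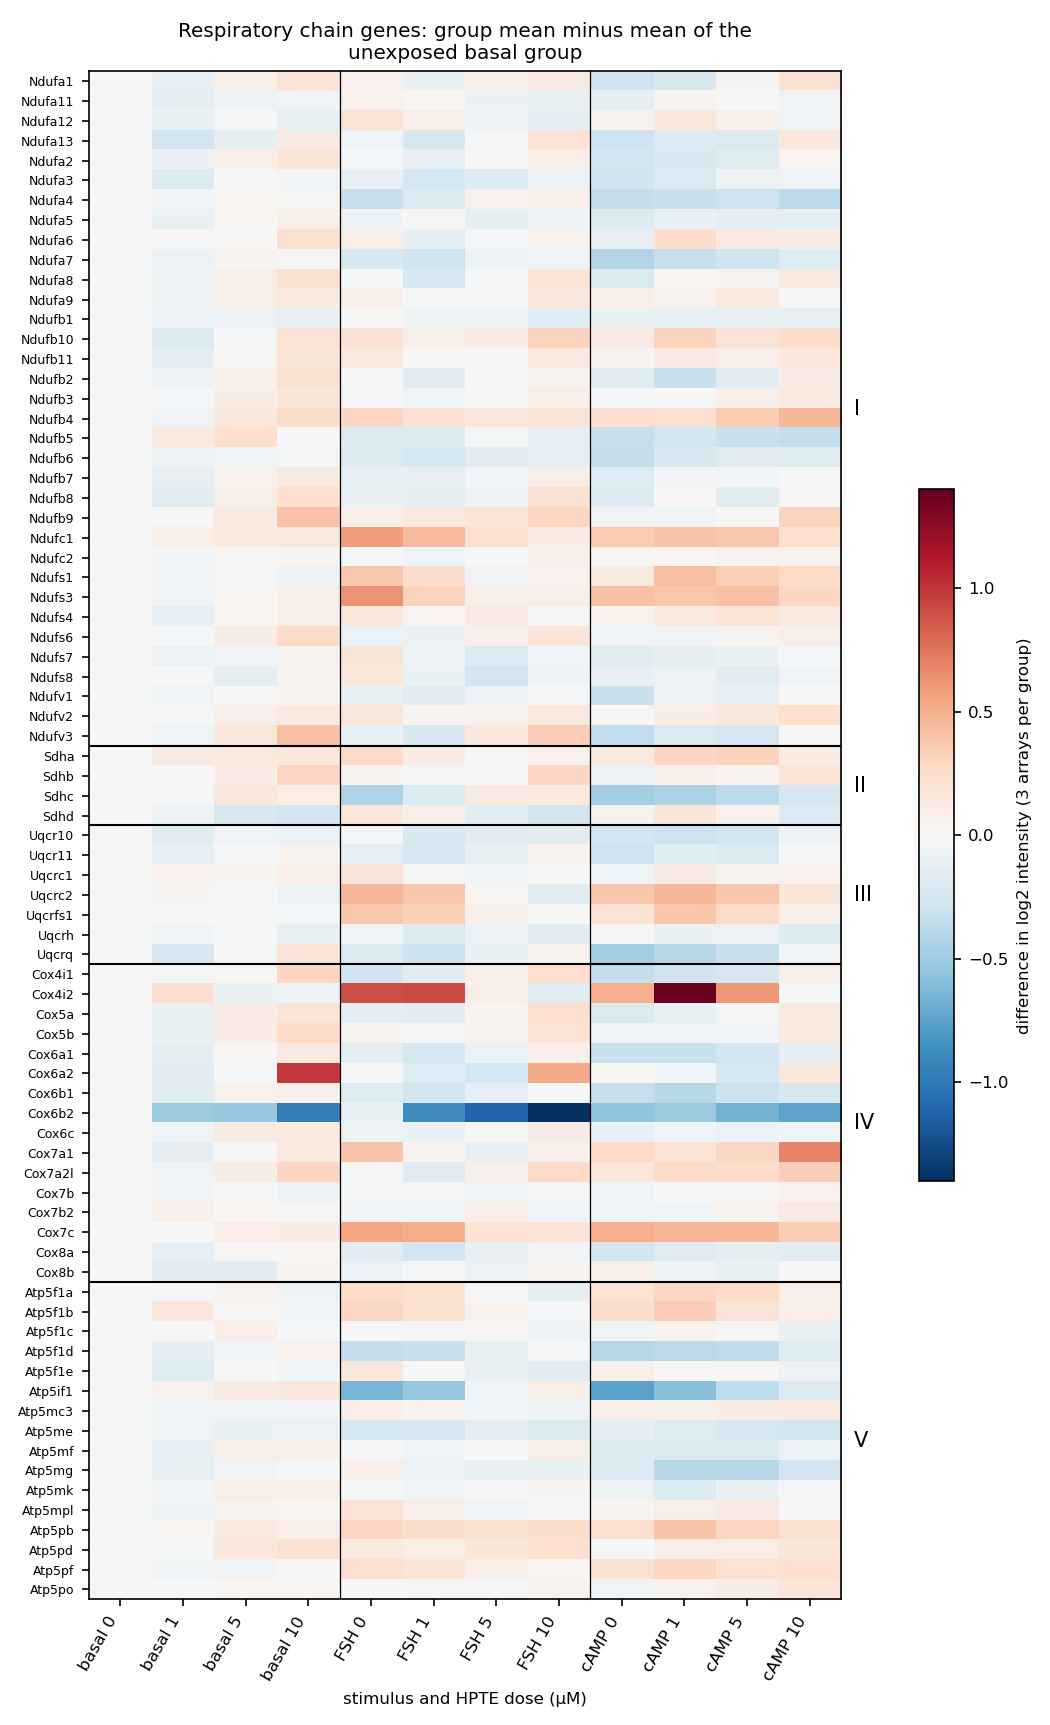
Group mean minus the mean of the unexposed basal group for each of the 77 members, in log2 intensity, with 3 arrays per group; rows are genes by complex I to V and columns are stimulus and HPTE dose in µM. Most cells are pale, and the strongest colours belong to Atp5if1 in complex V and to Cox4i2, Cox6a2 and Cox6b2 in complex IV, of which Cox4i2 and Cox6b2 did not pass the F test.

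Atp5if1, which blocks ATP hydrolysis by ATP synthase when the proton gradient falls, was the member with the clearest pattern. Its level fell with FSH and with cAMP, and rose again as HPTE was added to FSH. In unexposed basal cells it read 9.90, 9.91 and 9.62 on the log2 scale. With FSH the arrays read 9.0, 9.39 and 9.10, and with cAMP they read 9.11, 9.24 and 8.84. All 6 stimulated arrays lay below all 3 basal ones. The fall was 0.65 ± 0.17 (SE, n = 3 against 3) on the log2 scale with FSH, 1.56-fold (limma, adjusted p = 0.0111), and 0.75 ± 0.17 with cAMP, 1.68-fold (adjusted p = 0.00338). Both comparisons use the same basal arrays. FSH and cAMP differed from each other by 0.10 ± 0.17 (adjusted p = 1), with a 95% interval from -0.24 to 0.44.

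HPTE moved Atp5if1 the other way in FSH-treated cells. These comparisons use the same 3 unexposed FSH arrays as the fall with FSH, so the fall and the rise are not independent. At 1 µM HPTE the FSH arrays read 9.44, 9.28 and 9.12, at 5 µM 9.55, 10.05 and 9.65, and at 10 µM 10.13, 9.73 and 9.82. The 5 and 10 µM arrays all lay above the 3 unexposed FSH arrays, and the 10 µM arrays overlapped the unexposed basal ones. Against 0 µM the rise was 0.59 ± 0.17 at 5 µM (limma, adjusted p = 0.0272) and 0.73 ± 0.17 at 10 µM, 1.66-fold (adjusted p = 0.00375). In cAMP-treated cells the arrays at 10 µM read 9.88, 9.40 and 9.55. These too lay above all 3 unexposed cAMP arrays, and the difference of 0.55 ± 0.17 did not pass (adjusted p = 0.109). In basal cells 10 µM HPTE gave 10.24, 9.89 and 9.76, a difference of 0.15 ± 0.17 (adjusted p = 1). The interaction of FSH and 10 µM HPTE was 0.58 ± 0.23 and did not pass (adjusted p = 0.313), so the effect of HPTE was not shown to differ between FSH and basal cells. Without array 2 of the unexposed FSH and cAMP groups, which go against their labels, the differences were -0.76 with FSH, -0.83 with cAMP and 0.84 for 10 µM HPTE with FSH (limma, adjusted p = 0.00628, 0.00312 and 0.00243). The summed macrophage and leukocyte intensity was 1462 in unexposed basal cells and 960, 1310, 1678 and 1825 with FSH at 0, 1, 5 and 10 µM HPTE, with Atp5if1 means of 9.17, 9.28, 9.75 and 9.89. With cAMP the sum was 698, 439, 554 and 724 at these doses, with Atp5if1 means of 9.06, 9.23, 9.45 and 9.61. Between the arrays of a group the order went both ways. The array with the highest sum had the lowest Atp5if1 with FSH at 0 and 5 µM HPTE. It had the highest Atp5if1 with FSH at 1 and 10 µM, with cAMP at 0 and 10 µM and in basal cells at 10 µM. The part of these cells in the Atp5if1 values was not tested.

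At the same dose of HPTE, stimulated Atp5if1 lay below basal at 1 µM, by 0.59 ± 0.17 with FSH (limma, adjusted p = 0.0445) and by 0.65 ± 0.17 with cAMP (adjusted p = 0.0102). At 5 µM the differences were -0.17 ± 0.17 with FSH (adjusted p = 1) and -0.47 ± 0.17 with cAMP (adjusted p = 0.0867), and neither passed. A second Atp5if1 probe set of nearly the same brightness differed by -0.63 with FSH, -0.63 with cAMP and 0.60 for 10 µM HPTE with FSH, in the same directions, with adjusted p of 0.162, 0.173 and 0.18 in limma. With all 3 Atp5if1 probe sets averaged, 1 of them dim, none of its 6 calls passed, and the difference was -0.52 with cAMP (0.0718) and 0.52 for 10 µM HPTE with FSH (0.0607). The fall with cAMP at 0 µM and the rise with 10 µM HPTE in FSH cells passed without any 1 of the 6 arrays compared (highest adjusted p 0.0319 and 0.0381). The fall with FSH at 0 µM did not pass without basal array 1 or 2 or FSH array 1 or 3 (adjusted p 0.053 to 0.069), and that at 1 µM HPTE without any 1 of its 6 arrays (0.0727 to 0.248). With cAMP at 1 µM HPTE it did not pass without that dose's basal array 1 (0.0617) or cAMP array 2 or 3 (0.0659 and 0.0581). The rise with 5 µM HPTE in FSH cells did not pass without unexposed FSH array 1 or 3 (0.127 and 0.109) or 5 µM array 2 (0.215).

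**Figure D2:**
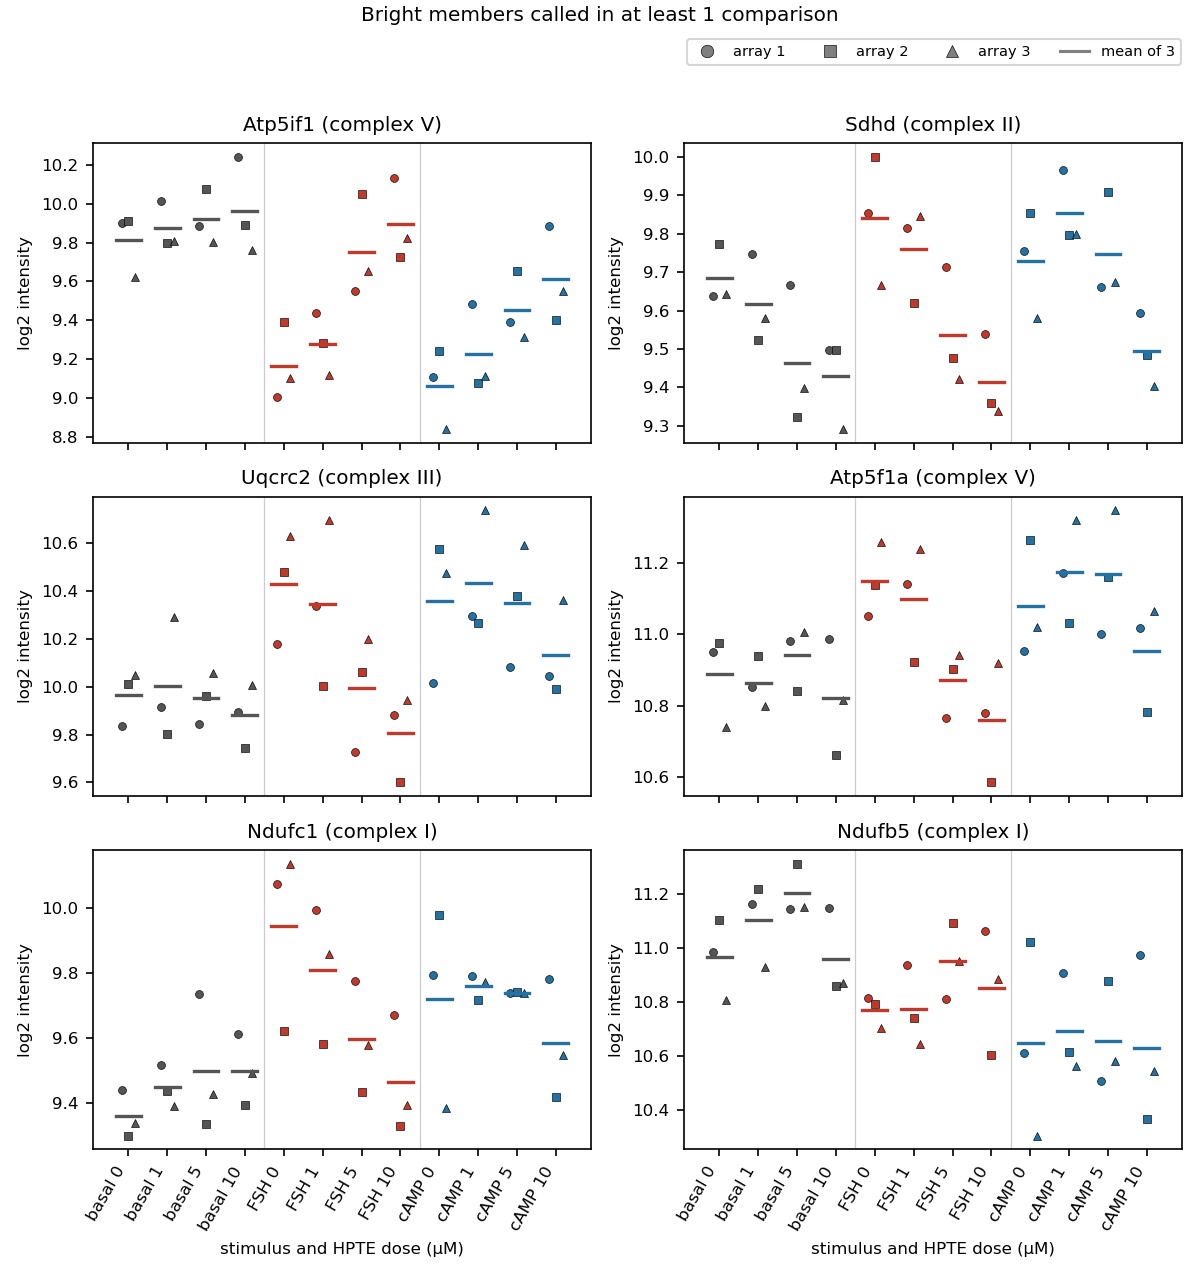
Log2 intensity of 6 bright members in each of the 36 arrays, by stimulus and HPTE dose in µM; symbols give the array's number, horizontal lines the mean of 3 arrays. Atp5if1 is low in unexposed FSH and cAMP cells (8.84 to 9.39) and climbs with HPTE, while Uqcrc2, Sdhd, Atp5f1a and Ndufc1 are lower at 10 µM HPTE with FSH than in unexposed FSH cells.

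Few members passed with FSH or cAMP in the fit without a block. With FSH in unexposed cells 1 member rose and 1 fell, Ndufc1 and Atp5if1, against 8.06% of all probe sets called in that comparison (3.88% higher, 4.18% lower). Another 7 members passed only an unadjusted p under 0.05, which made 9 of 77, against 16.1% of all probe sets. The median difference of the 77 members was -0.0015 on the log2 scale, against -0.0078 for all probe sets, with 38 members above 0 and 39 below. With cAMP 1 member was called, Atp5if1, against 7.18% of probe sets (2.69% higher, 4.49% lower). The median was -0.063, against 0.039 for all probe sets and -0.010 for those brighter than the median. The 95% interval lay within 2-fold in either direction for 65 of 77 members with FSH and 58 with cAMP. It lay within 1.5-fold for 29 and 26, so smaller changes of the others are not excluded. With the array's number as a block, 9 members passed with FSH and 8 with cAMP, against 16.1% and 15.2% of all probe sets.

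Ndufc1, an accessory subunit of the membrane arm of complex I, read 9.44, 9.30 and 9.34 in unexposed basal cells. With FSH it read 10.07, 9.62 and 10.13, all above basal. With cAMP it read 9.79, 9.98 and 9.39, of which the last overlapped basal. The rise with FSH was 0.58 ± 0.15, 1.5-fold (limma, adjusted p = 0.0105). With cAMP the difference was 0.36 ± 0.15 and did not pass (adjusted p = 0.189). The rise with FSH did not pass without FSH array 1 (adjusted p = 0.0617) or 3 (0.0901). Without array 2 of the unexposed FSH and cAMP groups it was 0.74 (limma, adjusted p = 0.000877). Core subunits of complex I had differences of the same sign that did not pass: Ndufs3, of the hydrogenase-like module, differed by 0.62 ± 0.21 with FSH (adjusted p = 0.0715), and Ndufs1, which carries iron-sulphur clusters, by 0.38 ± 0.15 (adjusted p = 0.162).

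In complex II the members did not go together. Sdha, the flavoprotein that oxidises succinate, differed by 0.28 ± 0.19 with FSH (limma, adjusted p = 0.593). The membrane anchor Sdhc differed by -0.43 ± 0.21 (adjusted p = 0.294) and the other anchor Sdhd by 0.16 ± 0.12 (adjusted p = 0.683). In complex III the core protein Uqcrc2 differed by 0.46 ± 0.19 (adjusted p = 0.16), and Uqcrfs1, the Rieske iron-sulphur protein, by 0.38 ± 0.28 (adjusted p = 0.679). In the fit without a block, none of the 4 members of complex II and none of the 7 of complex III passed with FSH or cAMP in unexposed cells in limma. At an unadjusted p under 0.05 there were 1 and 1 in complex II and 1 and 2 in complex III. The shares of all probe sets were 16.1% and 15.8%. With the array's number as a block, Sdhc (limma, adjusted p = 0.00591 and 0.00279) and Uqcrc2 (0.0121 and 0.0399) passed with FSH and with cAMP. Uqcrfs1 then passed with FSH (0.0387) and Uqcrq with cAMP (0.0274). With the block 16.1% and 15.2% of all probe sets were called.

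The same comparisons were made at each dose of HPTE. With FSH against basal, 0 members were called at 5 µM (0.00322% of all probe sets) and 0 at 10 µM (0%), with 0 and 1 at an unadjusted p under 0.05 in limma. Of all probe sets 1.37% and 1.6% had such a p. At 1 µM Atp5if1 was the 1 call, against 3.03% of probe sets (1.39% higher, 1.64% lower). At 10 µM the largest differences were Cox6b2 at -0.50 and Cox6a2 at -0.46, and Atp5pb at 0.16 and Ndufs1 at 0.13. With cAMP 1 member was called at each dose, and it was lower and a different gene each time: Atp5if1, Ndufb5 and Cox6a2. The share of all probe sets called was 8.71% at 1 µM (4.24% higher, 4.47% lower), 8.08% at 5 µM (3.99% and 4.09%) and 6.18% at 10 µM (2.73% and 3.45%).

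Ndufb5, an accessory subunit of complex I, read 11.14, 11.31 and 11.15 in basal cells at 5 µM HPTE and 10.50, 10.88 and 10.58 with cAMP at that dose. The cAMP arrays were all lower, by 0.55 ± 0.16 (limma, adjusted p = 0.0357). The basal level at 5 µM was the highest of its 12 group means. The call held only without cAMP array 2, and did not pass without any other 1 of the 6 arrays (adjusted p 0.0696 to 0.151).

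FSH and cAMP themselves were compared at each dose. In unexposed cells 0 members differed, with 0 also at an unadjusted p under 0.05 in limma, and 0% of all probe sets were called. Of all probe sets 3.23% had an unadjusted p under 0.05. The FSH value was the higher one in 70 of 77 members. The median was 0.11, against -0.015 for all probe sets and 0.0695 for those brighter than the median. Without the arrays numbered 3 in all groups, the FSH value was higher in 46 of 77. Array 3 of the unexposed cAMP group had the lowest upper quartile of all arrays (7.68). Without the arrays numbered 2, 680 of 31042 probe sets passed (2.19%), as did 0 members in limma (6 at an unadjusted p under 0.05). The members' median was then 0.18. The largest differences were Cox6b2 at 0.46 and Cox4i2 at 0.40, and Cox8b at -0.17 and Cox7a2l at -0.16. At 1 µM HPTE 0 members were called (0.409% of probe sets), with 1 at an unadjusted p under 0.05 (6.68% of probe sets). At 5 µM 0 were called (5.59%, of which 3.03% higher and 2.56% lower), with 5 unadjusted (13.9%). At 10 µM 1 was called (4.76%, of which 2.8% higher and 1.96% lower). That 1 was Cox7a1, the form of subunit VIIa of heart and skeletal muscle, which read 5.56, 5.32 and 5.19 with FSH and 6.31, 5.69 and 5.91 with cAMP. The FSH arrays were all lower, by 0.61 ± 0.18 (adjusted p = 0.0464). The probe set was dim, below the median probe set (6.11), and the difference did not pass without FSH array 2 (adjusted p = 0.14) or 3 (0.231) or cAMP array 1 (0.344) or 3 (0.0906).

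HPTE at 10 µM in FSH-treated cells was the comparison with most members called. Of the 77, 1 rose (Atp5if1) and 4 fell, against 8.45% of all probe sets (4.51% higher, 3.95% lower), so 5 of 77 (6.49%) is near that background. At an unadjusted p under 0.05 there were 14 of 77, with 6 higher and 8 lower, against 17% of all probe sets. The median difference of the 77 was 0.05, against -0.0087 for all probe sets, and the 95% interval was within 2-fold for 59. The members that fell came from complexes I, II, III and V, 1 from each, and in complex IV none of 16 passed, with 5 at an unadjusted p under 0.05 in limma.

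Uqcrc2, a core protein of complex III, read 10.18, 10.48 and 10.63 with FSH alone and 9.88, 9.60 and 9.94 with FSH and 10 µM HPTE. All 3 exposed arrays lay below all 3 unexposed ones. The fall was 0.62 ± 0.19, 1.54-fold (limma, adjusted p = 0.0333). The exposed level overlapped the unexposed basal arrays, which read 9.84, 10.01 and 10.05. A second, dimmer Uqcrc2 probe set differed by -0.23 ± 0.82 and did not pass (adjusted p = 0.975).

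Sdhd, a membrane anchor of succinate dehydrogenase, read 9.85, 10.00 and 9.67 with FSH alone and 9.54, 9.36 and 9.34 with FSH and 10 µM HPTE. The groups did not overlap. The fall was 0.43 ± 0.12, 1.35-fold (limma, adjusted p = 0.0172). In basal cells 10 µM HPTE gave 9.50, 9.50 and 9.29 against 9.64, 9.77 and 9.64, a difference of -0.26 ± 0.12 that did not pass (adjusted p = 0.673). In cAMP cells it was -0.24 ± 0.12 (adjusted p = 0.548). The interaction of FSH and 10 µM HPTE was -0.17 ± 0.17 (adjusted p = 0.985). A second Sdhd probe set differed by -0.12 ± 0.11 with FSH (adjusted p = 0.749). The other anchor, Sdhc, lay on the other side of 0, at 0.56 ± 0.21 (adjusted p = 0.0999).

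Atp5f1a, the alpha subunit of the catalytic head of ATP synthase, read 11.05, 11.14 and 11.26 with FSH alone. With FSH and 10 µM HPTE it read 10.78, 10.58 and 10.92, all lower. The fall was 0.39 ± 0.12, 1.31-fold (limma, adjusted p = 0.0453). Ndufc1 went from 10.07, 9.62 and 10.13 to 9.67, 9.33 and 9.39, and the highest exposed array overlapped the lowest unexposed one. Its fall was 0.48 ± 0.15 (adjusted p = 0.0417). The rise of Ndufc1 with FSH and this fall share the unexposed FSH arrays and are not independent.

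Leaving out 1 array at a time, the differences ranged from -0.75 to -0.52 for Uqcrc2, -0.51 to -0.35 for Sdhd, -0.47 to -0.30 for Atp5f1a and -0.64 to -0.38 for Ndufc1, and several calls were lost. Uqcrc2 did not pass without unexposed FSH array 2 (adjusted p = 0.0946) or 3 (0.177), or without any 1 exposed array (0.0502 to 0.181). Sdhd did not pass without unexposed array 1 (0.0534) or 2 (0.113) or exposed array 2 (0.0743) or 3 (0.0867). Atp5f1a passed only without exposed array 3 (0.0355; otherwise 0.0521 to 0.26), and Ndufc1 only without unexposed array 2 (0.0071) or exposed array 1, with 0.151 to 0.228 otherwise. Without array 2 of the unexposed FSH and cAMP groups, Uqcrc2 (adjusted p = 0.0897), Sdhd (0.107) and Atp5f1a (0.0788) did not pass in limma, while Ndufc1 (0.00418) did. In all these fits the differences kept their sign.

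At lower doses with FSH, 0 members were called at 1 µM (0.00644% of probe sets), with 0 at an unadjusted p under 0.05 in limma (2.89% of probe sets). Atp5if1 was the 1 call at 5 µM (6.54%, of which 3.45% higher and 3.08% lower), with 9 unadjusted (15.5%). With cAMP 0 members were called at any dose of HPTE in limma, against 0% of probe sets at 1 µM, 0.00322% at 5 µM and 1.69% at 10 µM, with 1, 1 and 4 at an unadjusted p under 0.05. Of all probe sets 2.39%, 8.45% and 9.36% had such a p at these doses. The 4 at 10 µM were all higher, and the median of the 77 was 0.12, with 53 members above 0. It was -0.024 for all probe sets and 0.037 for those brighter than the median. The largest differences there were Atp5if1 at 0.55 and Ndufa1, a small complex I subunit, at 0.51, and on the other side Cox4i2 at -0.52 and Sdhd at -0.24. Neither interaction at 10 µM called a member in limma: 0 with FSH against 2.17% of probe sets (3 unadjusted) and 0 with cAMP against 0.129% (1 unadjusted). The unadjusted shares of all probe sets were 9.74% and 3.74%.

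In basal cells 10 µM HPTE raised 1 member, Cox6a2, against 1.02% of probe sets (0.416% higher, 0.602% lower). At an unadjusted p under 0.05 there were 5, against 6.44% of probe sets. At 1 µM 0 were called (0% of probe sets), with 0 unadjusted in limma (0.512%). At 5 µM 0 were called (0.0129%), with 0 unadjusted (1.7%). Cox6a2 is the form of subunit VIa of heart and skeletal muscle, and its probe set was dim. It read 4.88, 5.12 and 5.19 in unexposed basal cells and 6.08, 5.81 and 6.26 at 10 µM, with no overlap. The rise was 0.99 ± 0.21, 1.99-fold (adjusted p = 0.0121). The 1 and 5 µM basal arrays lay between 4.70 and 5.24 and overlapped the unexposed ones. With FSH and 10 µM HPTE it read 5.12, 5.90 and 5.75, a difference of 0.53 ± 0.21 that did not pass (adjusted p = 0.139). With cAMP and 10 µM it read 5.36, 4.89 and 5.38, a difference of 0.12 ± 0.21 (adjusted p = 0.993). At 10 µM the cAMP cells lay below the basal cells by 0.84 ± 0.21 (adjusted p = 0.0108), and the interaction of cAMP and HPTE was -0.87 ± 0.30 and did not pass (adjusted p = 0.787). The rise did not pass without unexposed array 1 (0.0851) or exposed array 1 (0.0515) or 3 (0.0894), nor the difference from cAMP without exposed basal array 3 (0.0659) or cAMP array 2 (0.102).

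**Figure D3:**
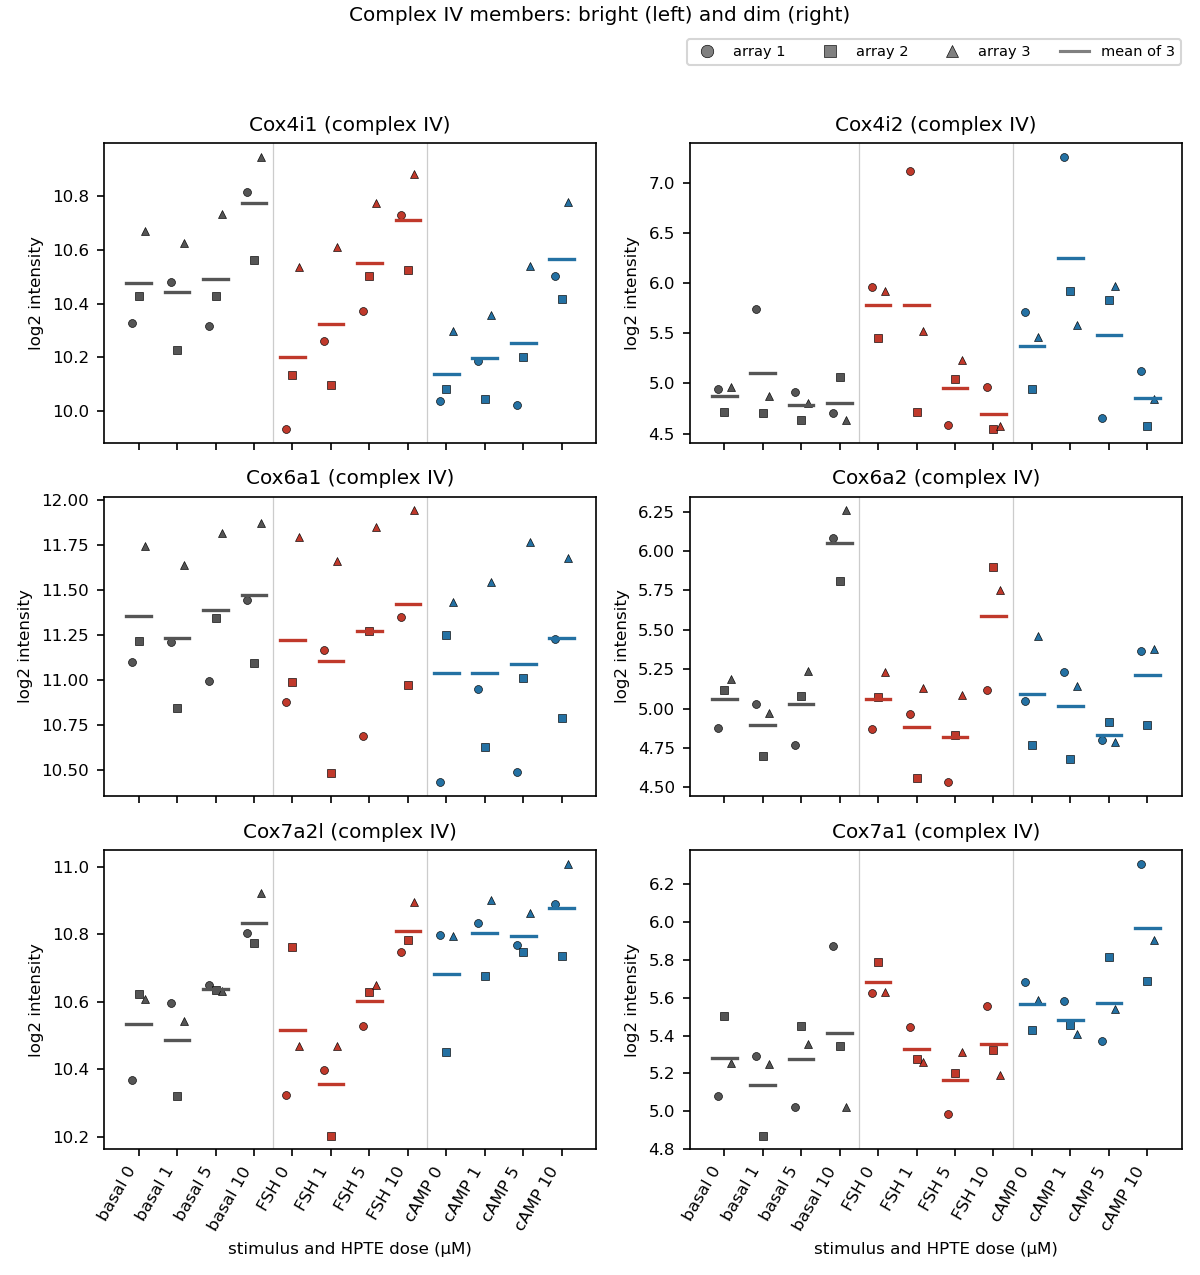
Log2 intensity of 6 complex IV members in each of the 36 arrays, by stimulus and HPTE dose in µM, with the array's number as the symbol and the mean of 3 arrays as a line. Cox6a2 stands at 5.81 to 6.26 in basal cells at 10 µM HPTE and at 4.88 to 5.19 in unexposed basal cells, and Cox4i2 has single high arrays, such as 7.11 and 7.26.

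Complex IV has several subunits with more than 1 form. The 5 members below the median probe set were all of this kind: Cox4i2, Cox6a2, Cox7a1, Cox7b2 and Cox8b. Cox4i2, a form of subunit IV known from lung and from low oxygen, read 4.94, 4.71 and 4.96 in unexposed basal cells and 5.96, 5.45 and 5.92 with FSH. These groups did not overlap, but the difference of 0.90 ± 0.43 did not pass (limma, adjusted p = 0.281). With cAMP at 1 µM HPTE 1 array read 7.26 and the others 5.92 and 5.58, and the difference from basal was 1.14 ± 0.43 (adjusted p = 0.108). Cox4i1, the widely used form of the same subunit, was bright. Its difference was -0.27 ± 0.17 with FSH (adjusted p = 0.544) and 0.51 ± 0.17 for 10 µM HPTE with FSH (adjusted p = 0.0697).

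Cox7a2l and Ndufv3 passed the test over 12 groups and no single comparison. Cox7a2l read 10.37, 10.62 and 10.61 in unexposed basal cells. At 10 µM HPTE it read 10.80, 10.78 and 10.92 in basal cells and 10.75, 10.78 and 10.90 with FSH. The differences from 0 µM were 0.30 ± 0.12 in basal cells (limma, adjusted p = 0.446) and 0.29 ± 0.12 with FSH (adjusted p = 0.15). Ndufv3, a small subunit of the NADH-binding module of complex I, had its lowest group mean in unexposed cAMP cells (8.20) and its highest in basal cells at 10 µM HPTE (8.95). HPTE at 10 µM differed from 0 by 0.41 ± 0.17 in basal cells (adjusted p = 0.542) and 0.45 ± 0.17 with FSH (adjusted p = 0.11).

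Many members differed by array number in the same way in every group. In 32 of 77 members (41.6%) the array numbered 3 lay above the mean of numbers 1 and 2 in all 12 groups, and in 23 (29.9%) it lay below in all 12. The shares over all probe sets were 13.1% and 13%, and over those brighter than the median 22.5% and 21.4%. The mean difference was over 2-fold in 7 members (9.09%), against 3.12% of all probe sets and 5.77% of those brighter than the median. Ndufb10, an accessory subunit of complex I, was 3.45-fold higher in the arrays numbered 3 and read 8.13, 8.80 and 10.15 in unexposed basal cells. Uqcrq, a small subunit of complex III, was 2.47-fold lower there and read 12.30, 12.23 and 11.13. Members of 1 complex went in both directions, with 13 higher and 12 lower in all groups of the 34 in complex I, and the median over the 77 members was 0.01. The Gapdh 3′ to 5′ difference moved with the array number, and its part in this was not tested.

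**Figure D4:**
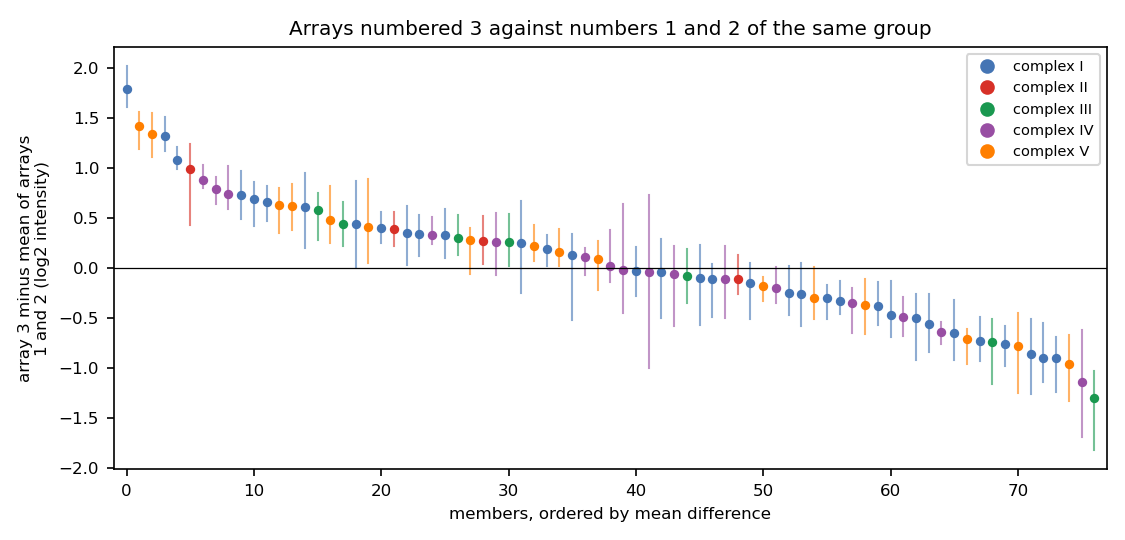
Array 3 minus the mean of arrays 1 and 2 of the same group, in log2 intensity, for the 77 members in order of the mean over 12 groups (points); lines span the lowest to the highest of the 12 groups and colours give the complex. The points run from 1.78 (Ndufb10) to -1.30 (Uqcrq), and the lines of 32 members lie wholly above 0 and those of 23 wholly below.

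This bears on the calls. Without the 12 arrays numbered 3, 0 of the 15 calls named here passed in limma, with the same direction in 15 of 15, an unadjusted p under 0.05 in 14, and adjusted p from 0.0567 to 0.447. Atp5if1 then differed by -0.71 with FSH (adjusted p = 0.0677), by -0.73 with cAMP (0.0583) and by 0.73 for 10 µM HPTE with FSH (0.0567). Other members passed in those 24 arrays. Cox7c, a small subunit of complex IV, rose by 0.51 ± 0.15 with FSH (adjusted p = 0.0451) and by 0.54 ± 0.15 with cAMP (0.0352), where the 36 arrays gave 0.55 ± 0.40 and 0.51 ± 0.40. It read 10.53, 10.59 and 11.48 in unexposed basal cells, 11.16, 10.99 and 12.09 with FSH and 11.03, 11.17 and 11.93 with cAMP, so within each array number both stimulated arrays lay above the basal one. For 10 µM HPTE with FSH, Cox4i1 rose by 0.59 ± 0.14 (0.0153) and Cox6b2, a form known from testis, fell by 1.20 ± 0.32 (0.0308). Cox6b2 read 8.58, 8.94 and 8.13 with FSH alone and 7.93, 7.19 and 6.42 with FSH and 10 µM HPTE.

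The level of the whole set also differed between arrays of 1 group. The mean of the 77 members was 9.78 to 10.21 over the 36 arrays, and the group means were 9.93 to 10.09 with SDs of 0.026 to 0.168. Array 1 lay above array 2 in 0 of the 6 groups at 0 and 5 µM HPTE and in 6 of the 6 at 1 and 10 µM. The upper quartile of all probe sets differed the same way between arrays 1 and 2 in 10 of the 12 groups. Comparisons of 1 or 10 µM with 0 µM HPTE cross this split of the doses. In them the dose and whatever made the split cannot be told apart. Comparisons of 5 with 0 µM, and those within 1 dose, do not cross it.

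**Figure D5:**
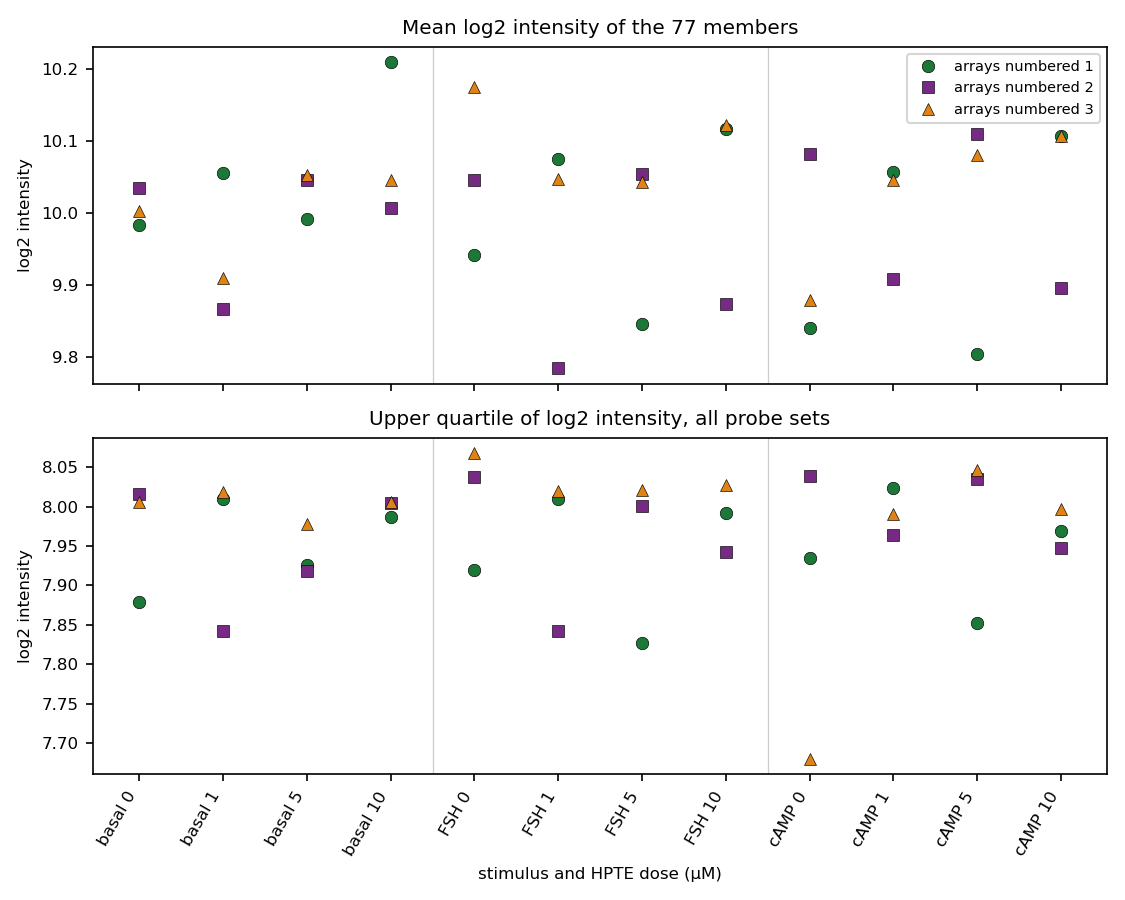
Mean log2 intensity of the 77 members (top) and upper quartile of log2 intensity of all probe sets (bottom) in each of the 36 arrays, by stimulus and HPTE dose in µM; colour and symbol give the array's number. The members' mean spans 9.78 to 10.21 over all arrays, and arrays 1 and 2 change places between doses.

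Around the chain, 6 lists of mitochondrial genes were read the same way, with 169 measured members in all. With FSH in unexposed cells 8 of these rose and 2 fell (5.92%, against 8.06% of all probe sets), and with cAMP 7 rose and 2 fell (5.33% against 7.18%). With FSH and 10 µM HPTE, against FSH alone, 1 rose and 10 fell (6.51% against 8.45%). In basal cells 10 µM HPTE called 0 of the 169 in limma, against 1.02% of all probe sets. At an unadjusted p under 0.05 there were 9, against 6.44% of all probe sets. In cAMP cells 1 was called, against 1.69%: Pparg, a nuclear receptor of lipid metabolism, fell by 1.34 ± 0.27 (adjusted p = 0.0042). By list, FSH called 1 of 15 genes of cytochrome c1, coenzyme Q and other subunits (cytochrome c itself was not among the 15), 3 of 37 assembly factors, 1 of 22 biogenesis regulators, 2 of 14 of the tricarboxylic acid cycle, 1 of 54 of the mitochondrial ribosome and 2 of 27 carriers and import factors. HPTE at 10 µM with FSH called 1, 1, 1, 2, 3 and 3 of these. The median differences with FSH lay between 0.02 and 0.19, and with FSH and HPTE between -0.24 and -0.06. The FSH and the HPTE comparison both use the unexposed FSH arrays. Opposite changes in them are therefore not independent, here and for the genes below.

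The mitochondrial chaperonin pair showed the largest rises with FSH that passed among the 169: Hspd1 (HSP60) by 1.07 ± 0.18 (limma, adjusted p = 0.000192) and Hspe1 (HSP10) by 0.97 ± 0.24 (0.00784). With 10 µM HPTE they fell by 1.08 ± 0.18 (0.000164) and 0.95 ± 0.24 (0.00914), and for Hspd1 the interaction of FSH and HPTE was -1.02 ± 0.26 (0.0331). Gabpb1, a subunit of the factor GABP, rose by 0.83 ± 0.17 with FSH (0.00109) and by 0.72 ± 0.17 with cAMP (0.00515), and fell by 0.83 ± 0.17 with FSH and HPTE (0.0012). Its DNA-binding partner Gabpa had group means only 0.33 apart and did not pass the F test (adjusted p = 1).

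Suclg2, a succinyl-CoA synthetase subunit, rose by 0.95 ± 0.18 with FSH (limma, adjusted p = 0.00064) and fell by 0.91 ± 0.18 with HPTE (0.001). Coq2, of coenzyme Q synthesis, rose by 0.45 ± 0.13 (0.032) and fell by 0.54 ± 0.13 (0.00823). Against these, Pdha1, of pyruvate dehydrogenase, fell by 0.89 ± 0.22 with FSH (0.00778), and Mrps6, a mitochondrial ribosomal protein, fell by 1.04 ± 0.28 with FSH (0.0168) and rose by 1.10 ± 0.28 with HPTE (0.00984). Atpaf1, Ndufaf7 and Sdhaf4, assembly factors of complexes V, I and II, rose with FSH by 0.50 ± 0.13 (0.0159), 0.41 ± 0.13 (0.046) and 0.90 ± 0.27 (0.0386). Of the steroid synthesis genes, 5 of 6 measured rose with FSH and with cAMP, and 4 fell with FSH and 10 µM HPTE. The shares of all probe sets called were 8.06%, 7.18% and 8.45%. Star was not among the 4 that fell, and in basal cells it rose by 2.49 ± 0.54 with 10 µM HPTE (limma, adjusted p = 0.0159). Cyp11a1, the side-chain cleavage enzyme of the same inner membrane, rose by 4.97 ± 0.79 with FSH (6.89e-05) and fell by 4.37 ± 0.79 with HPTE (0.000323).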

How the data were processed

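The data were 36 Affymetrix Rat Genome 230 2.0 arrays of 12 groups. Per the labels, RNA (40 ng per array) was amplified and labelled with the NuGEN Ovation kit. The authors deposited linear intensity (the scale was read from the values), normalized and summarised with RMA per the submitters' processing notes and ArrayAssist per the series' design text, with versions not given in the sources used here. Of 31099 probe sets, 57 controls were left out and 31042 tested, with no filter. Log2 values were fitted with limma 3.58.1 in R 4.3.3: 12 group means, no block, 24 residual degrees of freedom, 23 comparisons and an F test, two-sided, each adjusted by Benjamini-Hochberg over all probe sets at 0.05. The fit was tested on simulated data. Errors of differences are standard errors. Names came from the platform's annotation and promoters from RefSeq's GRCr8 table. The members and lists were chosen with earlier results of these data known. Members that passed were named with a test (at most 5 each way), where none passed mainly the 2 largest differences each way, and isoforms and catalytic subunits whatever their values. Genes called only without the arrays numbered 3, the F test members and the extremes of array 3 were named after their values were seen. Alternatives changed the block, arrays, normalization, filter, variance model and probe set. Of the cell type marker lists, FSH changed 8 of 10 granulosa, 1 of 6 theca and stroma, 1 of 8 macrophage and leukocyte, 0 of 5 endothelial, 0 of 5 oocyte, 0 of 5 surface epithelium and 1 of 2 red cell genes (limma; at an unadjusted p under 0.05, 8, 1, 1, 1, 0, 0 and 1). In that comparison 8.06% of all probe sets were called and 16.1% had an unadjusted p under 0.05. An array has no count depth, and the number of arrays limits the precision.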

Additional observations from a re-analysis of the deposited data

How the results depend on the processing

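Of 186 recomputations of the 15 named differences, 104 passed as before, 82 no longer passed and none changed sign. The medians of the 77 members were small (-0.0801 to 0.12) and moved by up to 0.0942; 8 of 103 recomputations changed the sign of a median. The limits are 3 arrays per group, arrays numbered 3 that stand apart, dim probe sets for 5 members and an unknown source of the 3 samples of a group; the 95% interval of a member's difference was 0.475 on the log2 scale to either side at the median. Counts below are members called, with FSH or cAMP compared with basal unless HPTE is named.

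With the number in the title as a replicate block the counts rose to 9 (FSH, 0 µM), 8 (cAMP, 0 µM), 2 (FSH, 1 µM), 10 (cAMP, 1 µM), 7 (cAMP, 5 µM) and 3 (cAMP, 10 µM). FSH against cAMP gave 1, 3 and 4 at 1, 5 and 10 µM. HPTE at 10 µM gave 2 in basal, 14 in FSH (6 higher, 8 lower) and 4 in cAMP cells, 5 µM in FSH cells gave 10, the FSH interaction 2 and the F test 23. The shares of all probe sets called were 16.1% (FSH) and 15.2% (cAMP) at 0 µM, above the shares of the members (9 and 8 of 77). They were 17.9% for cAMP at 1 µM (members 13%), 17.2% for 10 µM HPTE in FSH cells (members 18.2%) and 29% for the F test (members 29.9%). They were 8.02% for FSH at 1 µM, 17% and 12.8% for cAMP at 5 and 10 µM, and 2.52%, 12.8% and 11.1% for FSH against cAMP. HPTE gave 3.41% (10 µM, basal), 5.83% (10 µM, cAMP) and 14.3% (5 µM, FSH), and the FSH interaction 6.77%. For 10 µM HPTE in FSH cells the members called with the block include Cox4i1, Cox5a, Cox6a2, Cox6b2 and Cox7c. All 15 calls of the fit without the block were among the 79 with it, which came from 24 genes. Same-numbered arrays deviated together in 188 of 198 pairs (correlation over 0.1; lowest -0.124, highest 0.889), and each of the 36 arrays correlated best with its own number. Of the pairs at or below 0.1, 6 were numbered 1, 4 were numbered 2 and 0 were numbered 3. Most of them joined a group at 0 or 5 µM HPTE to one at 1 or 10 µM. The labels give no shared source, so the main fit did not pair the samples by number. It therefore leaves the differences between numbers in its spread, and a change that it does not call is not shown to be absent.

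Without the arrays numbered 3 the counts were 1 (FSH, 0 µM), 2 (10 µM HPTE in FSH) and 3 (F test), against 6.48%, 6.35% and 12.7% of all probe sets, and 0 for FSH at 1 µM, for cAMP at 1, 5 and 10 µM, for FSH against cAMP at 10 µM, for 10 µM HPTE in basal and for 5 µM in FSH cells (limma; 2, 9, 6, 4, 2, 5 and 9 at an unadjusted p under 0.05). For the comparisons with 0 members, in the same order, 0.85%, 7.44%, 6.85%, 6.01%, 3.81%, 0.486% and 4.56% of all probe sets were called. The shares of all probe sets at an unadjusted p are not given here for this fit. Without array 2 of the unexposed FSH and cAMP groups the counts were 2 (cAMP, 0 µM), 2 (5 µM HPTE in FSH), 3 (10 µM in FSH) and 1 (FSH interaction). The shares of all probe sets were then 7.31%, 6.99%, 8.28% and 3.41%. Quantile normalization gave 4 (FSH, 0 µM), 3 (cAMP, 1 µM), 2 (cAMP, 10 µM), 1 (FSH against cAMP, 1 µM), 3 (5 µM HPTE in FSH) and 12 (F test), and 0 for FSH at 1 µM, cAMP at 5 µM and FSH against cAMP at 10 µM. Testing the probe sets brighter than the median alone gave 2 (cAMP, 1 µM) and 0 for cAMP at 10 µM, FSH against cAMP at 10 µM and 10 µM HPTE in basal cells, where the genes called are dim and were not tested. A variance trend gave 0 (FSH, 1 µM) and 3 (10 µM HPTE in FSH). The mean of a gene's probe sets, 3 of them for Atp5if1, gave 1 (FSH, 0 µM), 2 (10 µM HPTE in FSH) and 0 for cAMP at 0 µM, FSH and cAMP at 1 µM and 5 µM HPTE in FSH cells. Apart from the dim genes that were left out of a test, the cause of these changes was not tested. From quantile normalization on, the shares of all probe sets called are not given here, so these counts have no background beside them.

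Leaving out each array in turn gave 0 to 2 (FSH, 0 µM), 1 to 2 (cAMP, 0 µM), 0 to 0 (FSH, 1 µM), 0 to 2 (cAMP, 1 µM), 0 to 1 (cAMP, 5 µM), 0 to 2 (cAMP, 10 µM), 0 to 1 (FSH against cAMP, 10 µM), 0 to 1 (10 µM HPTE in basal), 0 to 2 (5 µM in FSH), 1 to 4 (10 µM in FSH) and 0 to 1 (FSH interaction).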
